A study of Mus musculus with 7 samples.

Results

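Translation initiation factors are the proteins that bring the small ribosomal subunit, the initiator tRNA and the mRNA together before the first peptide bond is made. eIF1 and eIF1A keep the ribosome open while it scans for a start codon, eIF2 brings the initiator tRNA and is recharged with GTP by eIF2B, and eIF3 is a large scaffold on the ribosome. eIF4E, eIF4G and eIF4A form the eIF4F complex on the mRNA cap, where the eIF4E-binding proteins (4E-BPs) compete with eIF4G, and eIF5, eIF5B and eIF6 act around the joining of the large subunit. Their genes were taken from the read-count table by symbol, as those that start with Eif and a digit, without the Eif2ak kinases and without *Eif2s3y*. Of the 14819 rows of the table, 54 had such a symbol, 5 were left out by this rule and 2, *Eif4ebp1* and *Eif4ebp2*, are described apart. The other 47 genes were 46 protein-coding genes and the processed pseudogene *Eif4a-ps4*, and all 47 passed the filter on low counts. *Eif4e1b* and *Eif4ebp3* were not analysed here.

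The RNA came from the livers of male mice, as primary hepatocytes isolated by collagenase perfusion and kept overnight, untreated, in medium with serum, with 4 WT and 3 WDR6-WKO libraries. In WDR6-WKO mice exon 2 of *Wdr6* was removed by CRISPR–Cas9 in the whole body, so the gene was also missing outside the liver and during development. WDR6 is a WD40 repeat protein known as a partner of the tRNA methyltransferase FTSJ1. The age of these mice and whether each library came from its own isolation are not given in the sources used here, so p-values measure only the spread between these libraries.

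*Wdr6* fell from 44.0 ± 4.03 CPM in WT (read counts scaled to a fixed library total, mean ± s.d., n = 4 throughout) to 2.38 ± 0.179 CPM in WDR6-WKO hepatocytes (n = 3 throughout), and the genotypes did not overlap. The libraries held 17816913 to 23668940 counted reads. WDR6-WKO replicate 3 stood apart, with a chi-square of 14.3 and 16.0 per gene against WDR6-WKO replicates 1 and 2, which differed from each other by 5.14, while pairs of WT libraries differed by 3.80 to 8.23. Markers of cell types were called at an adjusted p under 0.05 in edgeR, where 6.65% of all genes tested were higher and 6.18% lower. Of 10 hepatocyte markers, 5 were lower in WDR6-WKO hepatocytes. Log2 fold changes were negative for all 10, with a median of -0.30. The summed level of the 10 was 13510 to 16100 CPM in WT and 12470 to 14410 CPM in WDR6-WKO libraries. Most of these sums was *Alb*, at 7366 ± 730 CPM in WT and 6480 ± 363 CPM in WDR6-WKO hepatocytes, and *Apob*, at 5845 ± 479 and 5429 ± 763 CPM. Of 13 markers of Kupffer cells (liver macrophages), 4 were higher (*C1qb*, *C1qc*, *Lyz2* and *Fcgr1*), with sums of 863.9 to 943.9 CPM in WT and 999.7 to 1199 CPM in WDR6-WKO libraries. Log2 fold changes were positive for 12 of the 13 and negative for 1, *Timd4* (-0.48, adjusted p = 0.088), whose genotypes did not overlap. Of 6 cholangiocyte (bile duct cell) markers, 2 were higher (*Sox9* and *Spp1*), with sums of 3137 to 3435 CPM in WT and 3809 to 4380 CPM in WDR6-WKO libraries. Most of these sums was *Spp1*, at 2980 ± 178 CPM in WT and 3693 ± 338 CPM in WDR6-WKO hepatocytes. Log2 fold changes were positive for 4 of the 6 and negative for 2, *Krt19* (-0.05) and *Krt7* (-0.10). Of 8 sinusoidal endothelial markers 1 was lower, and of 8 stellate cell markers 1 was higher and 1 lower. The part of these cells in the values that follow was not tested, and in such bulk RNA fewer cells of a type cannot be told apart from less RNA per cell.

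In WDR6-WKO hepatocytes the mRNA of 7 of the 47 initiation factors rose and that of 0 fell with the threshold of 0.05 on the adjusted p of edgeR's quasi-likelihood test. The 7 genes were *Eif1ad*, *Eif6*, *Eif2s2*, *Eif5a*, *Eif2d*, *Eif3c* and *Eif1ax*, and their mean levels were 11.4% to 26.8% above WT. They made up 14.9% of the 47 genes, where 6.65% of all 14779 genes tested were called higher and 6.18% lower, or 12.8% in either direction. At an unadjusted p under 0.05, 12 factors were higher and 1 was lower, against 14.6% and 13.6% of all genes (28.1% in either direction), and DESeq2 called the same 7 higher and 1 lower, *Eif3j2*. The thresholds of the study for differentially expressed genes were a log2 fold change of 0.35 or more in size with an unadjusted p under 0.05. The study used DESeq2, while here these thresholds were applied to the edgeR values. With them 0 factors were higher, against 6.42% of all genes, and 1 was lower, *Eif3j2*, against 3.94% (10.4% in either direction). *Eif1ad* lay just under the cut, with a log2 fold change of 0.343.

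**Figure D1:**
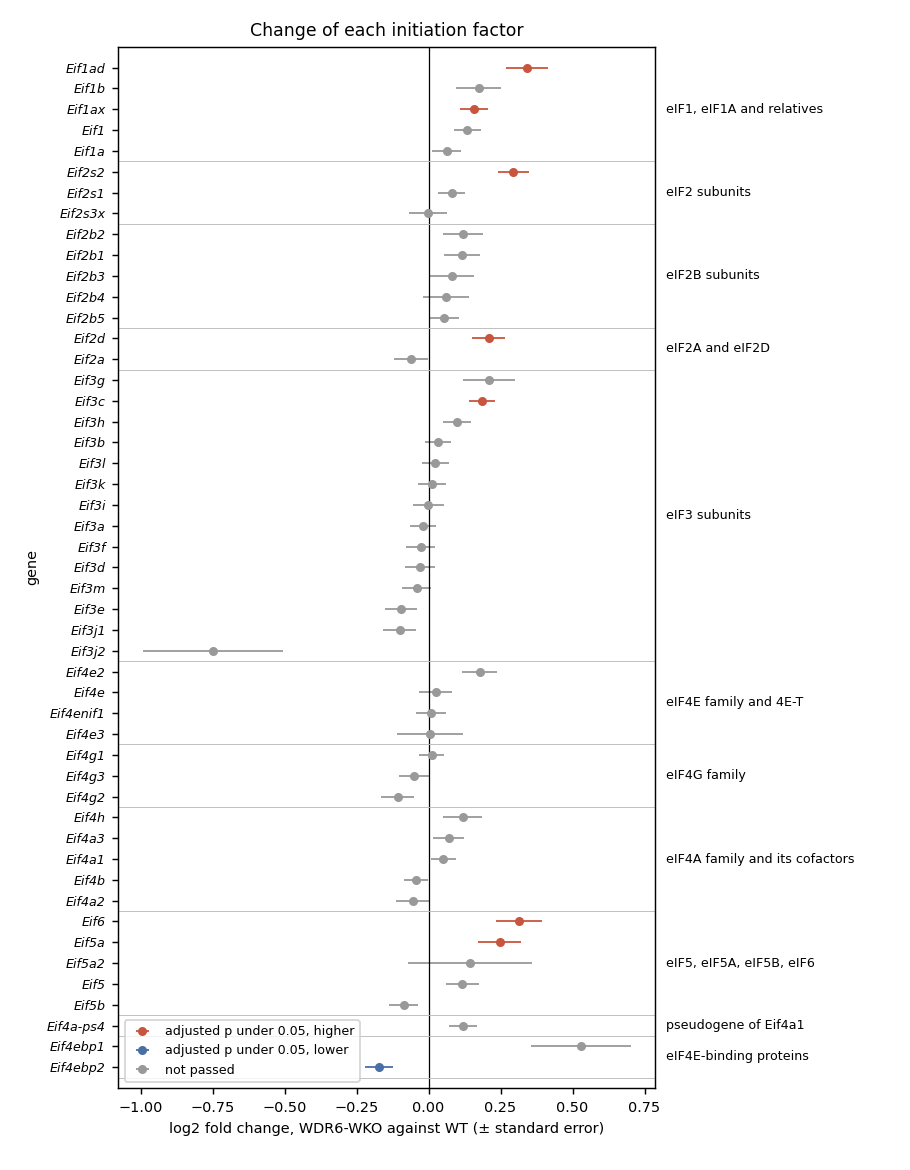
Log2 fold change of WDR6-WKO against WT (x axis, ± standard error) for each initiation factor gene and the 2 4E-BP genes (y axis), grouped by role, with colours for genes that passed the adjusted test. The 47 factors lie between -0.75 (*Eif3j2*) and 0.34 (*Eif1ad*), and 32 lie above 0.

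The median log2 fold change of the 47 genes was 0.05, against 0.01 over all genes, and the median absolute log2 fold change was 0.08, against 0.13. The factors were deeply counted, with a median WT level of 136 CPM, not divided by length, against 20.4 CPM over all genes, and had a median coefficient of variation among WT libraries of 3.03% against 6.84%. Together they summed to 10960 to 11070 CPM in WT and 11240 to 11610 CPM in WDR6-WKO libraries. The libraries of the genotypes did not overlap for 9 factors that were higher and 2 that were lower, where 11.8% of all genes were higher and 11.7% lower without overlap (23.5% in either direction).

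**Figure D2:**
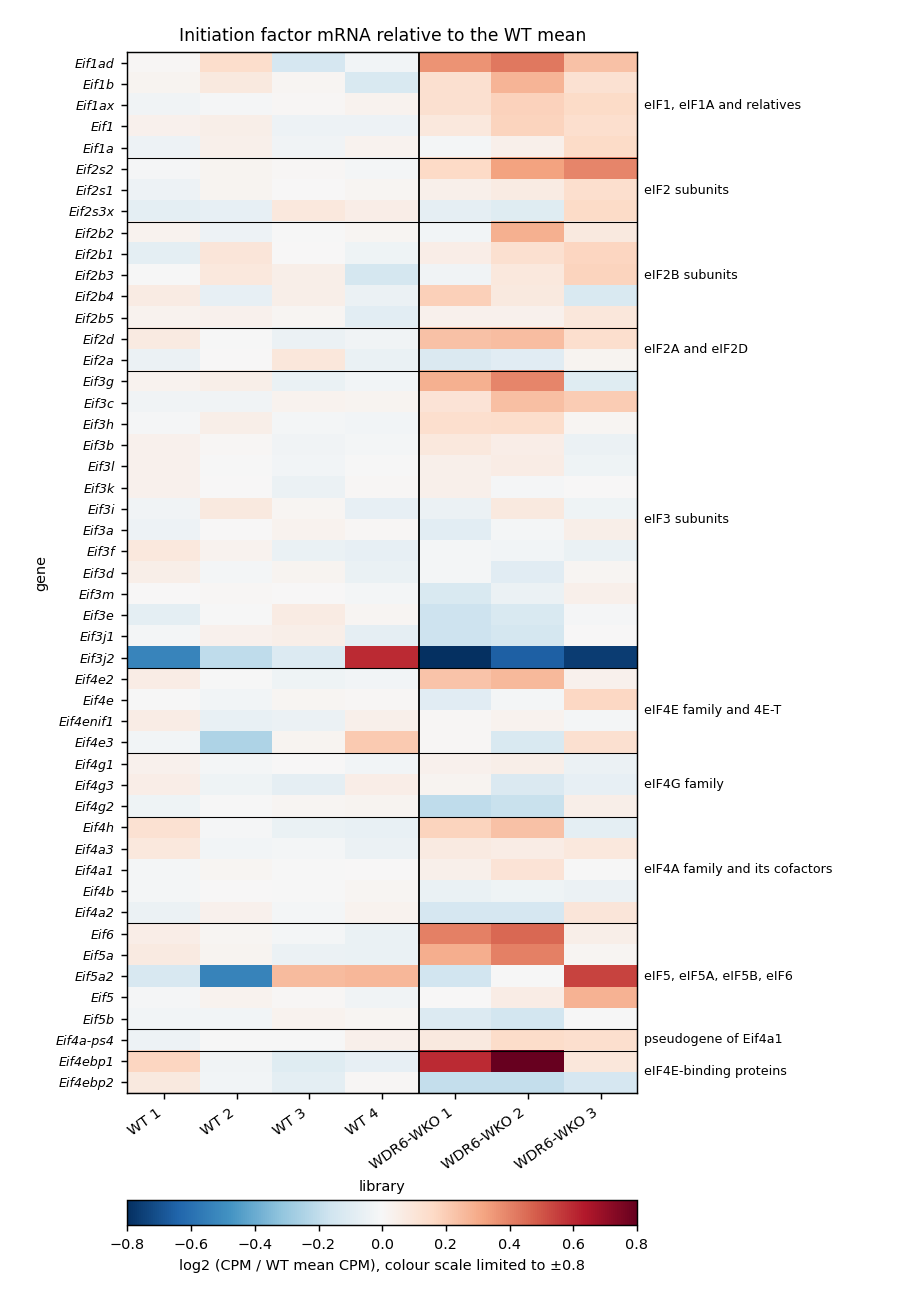
Level of each gene (rows, grouped by role) in each library (columns) as log2 of CPM over the WT mean, with the colour scale limited to ±0.8. *Eif1ad* and *Eif2s2* are above the WT mean in the 3 WDR6-WKO libraries, while *Eif6*, *Eif5a* and *Eif4ebp1* are far above it in WDR6-WKO replicates 1 and 2 and near it in replicate 3.

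Of the 5 genes for start codon scanning 2 rose. All 5 had a positive log2 fold change, with a median of 0.16. *Eif1ad* encodes a relative of eIF1A and lies at chr19:5366741-5371526 (GRCm38, plus strand). Its level was 35.1, 38.5, 31.8 and 34.3 CPM in WT replicates 1 to 4, and 44.8, 46.8 and 41.2 CPM in WDR6-WKO replicates 1 to 3. The lowest WDR6-WKO library was above the highest WT library, and the log2 fold change was 0.34 (SE 0.07, adjusted p = 0.0060). The exons of *Eif1ad* overlap those of *Banf1* on the opposite strand over 428 bases, and since the strand setting of the counting is not given, reads there cannot be told apart. *Banf1* was 63.3 ± 3.46 CPM in WT and 85.3 ± 19.5 CPM in WDR6-WKO hepatocytes, with an adjusted p of 0.0895. It passed with DESeq2 (adjusted p = 0.00374) and without WDR6-WKO replicate 3, where its log2 fold change was 0.60 in place of 0.43. The ratio of *Eif1ad* to *Banf1* counts within a library overlapped between genotypes, at 0.515 to 0.601 in WT and 0.468 to 0.652 in WDR6-WKO libraries, and was not tested.

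*Eif1ax* encodes the X-linked copy of eIF1A, and lies at chrX:159372178-159389928 (plus strand). Its 4 WT libraries ran from 95.1 to 99.0 CPM and its WDR6-WKO libraries were at 106, 110.1 and 108 CPM, so the groups did not overlap. The log2 fold change was 0.16 (SE 0.05, adjusted p = 0.0452), and the call was lost with median-of-ratios size factors (adjusted p = 0.0522) and with the replicate number as a block (adjusted p = 0.0626). *Eif1a*, the autosomal copy, was at 209 ± 6.10 CPM in WT and 219 ± 13.3 CPM in WDR6-WKO hepatocytes (adjusted p = 0.463). *Eif1*, with the highest CPM of the group before division by length, was at 307 ± 10.1 and 337 ± 11.5 CPM with an adjusted p of 0.0702, and *Eif1b* at 22.6 ± 1.27 and 25.5 ± 1.54 CPM with an adjusted p of 0.160. The libraries of the genotypes did not overlap for either of these genes.

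Among the 3 subunits of eIF2, *Eif2s2*, which encodes the beta subunit, rose. It lies at chr2:154871410-154892935 (minus strand). Its level was 143.5, 147, 146 and 143 CPM in WT replicates 1 to 4, and 162, 181 and 189.9 CPM in WDR6-WKO replicates 1 to 3. The WT libraries lay close together and every WDR6-WKO library was higher, with a log2 fold change of 0.29 (SE 0.06, adjusted p = 0.00223). *Eif2s1*, for the alpha subunit that stress kinases phosphorylate, was at 159 ± 3.05 CPM in WT and 168 ± 5.72 CPM in WDR6-WKO hepatocytes (adjusted p = 0.286). Its libraries did not overlap between genotypes either, at 154.8 to 161.6 CPM in WT and 163.8 to 174.8 CPM in WDR6-WKO libraries. *Eif2s3x*, for the gamma subunit that binds GTP and the tRNA, was at 145 ± 8.01 and 145 ± 14.3 CPM (adjusted p = 0.989).

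The ratio of *Eif2s2* to *Eif2s1* counts within a library was 0.888 to 0.927 in WT and 0.989 to 1.09 in WDR6-WKO libraries. The ratio of *Eif2s2* to *Eif2s3x* counts was 0.951 to 1.06 and 1.18 to 1.34, and that of *Eif2s1* to *Eif2s3x* counts was 1.04 to 1.17 and 1.08 to 1.23. The genotypes were apart for both ratios with *Eif2s2* and overlapped for the ratio without it. These ratios were chosen after the values were seen and were not tested. Of all 50-base sequences in the *Eif2s2* transcript with the longest coding sequence (2542 bases, where the merged exons have 6755), 27.8% also occur in *Gm9892*. Reads of these genes could thus have been split between them. *Gm9892* was at 18.3 ± 2.02 CPM in WT and 23.3 ± 2.97 CPM in WDR6-WKO hepatocytes (adjusted p = 0.0384, not passed without WT replicate 1, 3 or 4 or WDR6-WKO replicate 2, at 0.0890 to 0.192).

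The 5 subunits of eIF2B, the exchange factor that puts GTP back on eIF2, did not pass the test. Their log2 fold changes were all positive, from 0.05 to 0.12, with adjusted p-values of 0.231 for *Eif2b1*, 0.288 for *Eif2b2*, 0.555 for *Eif2b3*, 0.677 for *Eif2b4* and 0.549 for *Eif2b5*. *Eif2b1* was at 52.0 ± 2.71 CPM in WT and 56.4 ± 2.25 CPM in WDR6-WKO hepatocytes. *Eif2b5*, for the catalytic subunit, was at 96.5 ± 3.79 and 100.1 ± 2.29 CPM, and the WT and WDR6-WKO ranges overlapped for every subunit.

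Outside the eIF2 complex, *Eif2d* rose. It encodes a factor that can place a tRNA on the small subunit without GTP and that acts in ribosome recycling, and it lies at chr1:131153181-131187658 (plus strand). Its level was 57.3, 54.5, 52.8 and 53.4 CPM in WT replicates 1 to 4, and 64.2, 64.7 and 59.9 CPM in WDR6-WKO replicates 1 to 3. No library overlapped between genotypes, and the log2 fold change was 0.21 (SE 0.06, adjusted p = 0.0272). *Eif2a*, for a factor apart from eIF2 despite its name, was at 69.4 ± 3.20 CPM in WT and 66.6 ± 3.45 CPM in WDR6-WKO hepatocytes (adjusted p = 0.545).

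The largest group was the 14 genes of eIF3 subunits, of which 1 rose and 0 fell at an adjusted p under 0.05, with 2 higher and 1 lower at an unadjusted p under 0.05. Their median log2 fold change was -0.01, with 6 genes above 0 and 8 below. *Eif3c*, a subunit of the ribosome-binding core, lies at chr7:126546455-126566411 (minus strand). It was at 392, 392, 407 and 405 CPM in WT replicates 1 to 4, and at 430.2, 471 and 460.3 CPM in WDR6-WKO replicates 1 to 3. All 3 WDR6-WKO libraries were above the WT libraries, and the log2 fold change was 0.19 (SE 0.05, adjusted p = 0.0148).

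*Eif3a*, the largest core subunit, was at 686 ± 14.5 CPM in WT and 677 ± 30.2 CPM in WDR6-WKO hepatocytes (adjusted p = 0.842). *Eif3b*, also of the core, was at 348 ± 6.51 and 356 ± 16.2 CPM (adjusted p = 0.694). The ratio of *Eif3c* to *Eif3a* counts was 0.570 to 0.589 in WT and 0.651 to 0.696 in WDR6-WKO libraries, while that of *Eif3c* to *Eif3b* counts overlapped, at 1.10 to 1.19 and 1.17 to 1.36. The ratio to *Eif3a* separated the genotypes, and neither was tested. *Eif3g*, which binds RNA, was named after its values were seen, at 67.3, 67.9, 63.4 and 64.8 CPM in WT replicates 1 to 4 and 80.2, 86.1 and 61.6 CPM in WDR6-WKO replicates 1 to 3 (adjusted p = 0.148). Its WDR6-WKO replicate 3 was below all WT libraries and the other WDR6-WKO libraries were above them.

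*Eif3j2*, one of 2 copies of the gene for the loosely bound eIF3j subunit, had the lowest log2 fold change, -0.75 (SE 0.24, adjusted p = 0.0546). It passed with DESeq2 (adjusted p = 0.0406), with GC correction (0.0374) and without WT replicate 1 (0.0274) or WDR6-WKO replicate 3 (0.0315). It was at 2.42, 3.04, 3.24 and 5.27 CPM in WT replicates 1 to 4 and at 1.95, 2.22 and 2.07 CPM in WDR6-WKO replicates 1 to 3. The groups did not overlap, but WT replicate 4 held the highest value by far. Of its 50-base sequences, 91.8% occur in other genes, mostly in *Eif3j1*, so its reads are uncertain. *Eif3j1* was at 84.3 ± 3.11 CPM in WT and 78.7 ± 5.15 CPM in WDR6-WKO hepatocytes (adjusted p = 0.282). The ratio of *Eif3j2* to *Eif3j1* counts was 0.029 to 0.0657 in WT and 0.0244 to 0.029 in WDR6-WKO libraries, which overlapped, and was not tested.

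**Figure D3:**
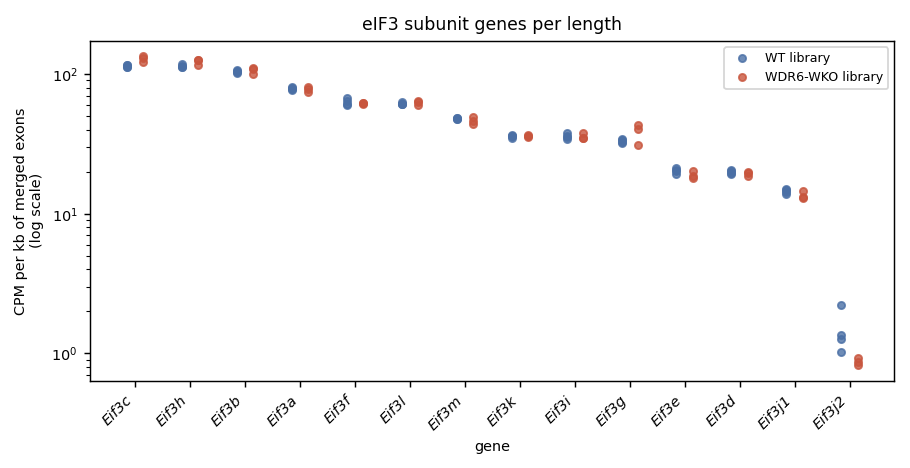
CPM per kb of merged exons (y axis, log scale) for each eIF3 subunit gene (x axis), with 1 point for each WT and WDR6-WKO library. *Eif3c*, *Eif3h* and *Eif3b* lie highest, at 104 to 114 CPM per kb in WT, and *Eif3j2* lies lowest, at 1.47.

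To compare eIF3 genes with each other, CPM was divided by the length of the merged exons. In WT hepatocytes *Eif3c* and *Eif3h* were at 114 CPM per kb, *Eif3b* at 104 and *Eif3a* at 78.5, while *Eif3e* was at 20.3, *Eif3d* at 19.8 and *Eif3j1* at 14.5 CPM per kb. Without *Eif3j2*, the highest subunit was 7.86 times the lowest. The order depended on the length used, since by the transcript with the longest coding sequence *Eif3h* was at 142 CPM per kb, *Eif3a* at 134 and *Eif3k* at 125, and *Eif3c* at 118 was below them. For some genes the transcript used here was not the one whose GC content and length are given further on. For *Eif3k* it had 774 bases and the other had 1782, so its place is uncertain. Neighbours such as *Eif3c* and *Eif3h*, or *Eif3k* and *Eif3i* at 35.8 each, did not differ beyond their spread.

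No gene of the cap-binding complex eIF4F passed the test. *Eif4e*, for the protein that binds the cap, was at 146 ± 1.75 CPM in WT and 149 ± 13.9 CPM in WDR6-WKO hepatocytes (adjusted p = 0.835). *Eif4g1*, for its scaffold, was at 1274 ± 22.3 and 1284 ± 46.1 CPM (adjusted p = 0.907), and *Eif4a1*, for its helicase, at 878 ± 7.62 and 909.8 ± 35.1 CPM (adjusted p = 0.479). The longest coding transcript of *Eif4a1* shares 65.3% of its 50-base sequences with other genes, most of them with *Eif4a-ps4*, which was at 113 ± 2.68 and 123 ± 3.24 CPM (adjusted p = 0.125). The ratio of *Eif4a-ps4* to *Eif4a1* counts overlapped, at 0.126 to 0.132 in WT and 0.131 to 0.141 in WDR6-WKO libraries, and was not tested.

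None of the 4 genes of the eIF4E family and 4E-T, the 3 of the eIF4G family and the 5 of the eIF4A family and its cofactors passed the adjusted test in either direction in edgeR. At an unadjusted p under 0.05, 1 of these 12 genes was higher, *Eif4e2*, for a cap-binding protein known as a repressor of translation, at 82.3 ± 2.39 CPM in WT and 93.1 ± 7.84 CPM in WDR6-WKO hepatocytes (adjusted p = 0.0672). *Eif4g2*, for the eIF4G-like protein DAP5, which lacks the eIF4E-binding part, was at 1300 ± 23.6 and 1206 ± 119 CPM (adjusted p = 0.233). *Eif4h*, a cofactor of eIF4A, was at 289.7 ± 17.3 and 314 ± 34.7 CPM (adjusted p = 0.282), and without WDR6-WKO replicate 3 its log2 fold change was 0.20 in place of 0.12 and passed (adjusted p = 0.000874). *Eif4b*, another cofactor and named after its values were seen, was at 399 to 409 CPM in WT and 388 to 395 CPM in WDR6-WKO libraries, which did not overlap, with an adjusted p of 0.526.

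The 2 genes of 4E-BPs, the inhibitors of eIF4E that mTORC1 phosphorylates, were placed in opposite directions. *Eif4ebp2* (chr10:61428491-61452661, minus strand) was at 285, 266, 256 and 272 CPM in WT replicates 1 to 4, and at 237, 236 and 245 CPM in WDR6-WKO replicates 1 to 3. It fell without overlap between the genotypes, with a log2 fold change of -0.17 (SE 0.05, adjusted p = 0.0298). The adjusted p was 0.0597 with library sizes alone in place of TMM scaling, and the call was also lost without WT replicate 1, 2 or 4 or WDR6-WKO replicate 1 or 2, where the log2 fold change ran from -0.18 to -0.14.

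*Eif4ebp1* (chr8:27260329-27276674, plus strand) was at 207, 181, 172 and 176 CPM in WT replicates 1 to 4, and at 279, 321 and 196 CPM in WDR6-WKO replicates 1 to 3. WDR6-WKO replicate 3 was inside the WT range. The log2 fold change was 0.53 (SE 0.17), the largest positive value among the 49 genes described here, but the gene did not pass the test (adjusted p = 0.109). It passed the study's thresholds (unadjusted p = 0.0221) and DESeq2 (adjusted p = 0.0323), and without WDR6-WKO replicate 3 edgeR gave 0.70 with an adjusted p of 0.000693. The ratio of *Eif4ebp1* to *Eif4ebp2* counts was 0.649 to 0.727 in WT and 0.799 to 1.36 in WDR6-WKO libraries, and that of *Eif4ebp2* to *Eif4e* counts was 1.73 to 1.96 and 1.49 to 1.72. Both ratios separated the genotypes, while that of *Eif4ebp1* to *Eif4e* counts overlapped, at 1.17 to 1.42 and 1.19 to 2.22, and none of the 3 was tested.

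**Figure D4:**
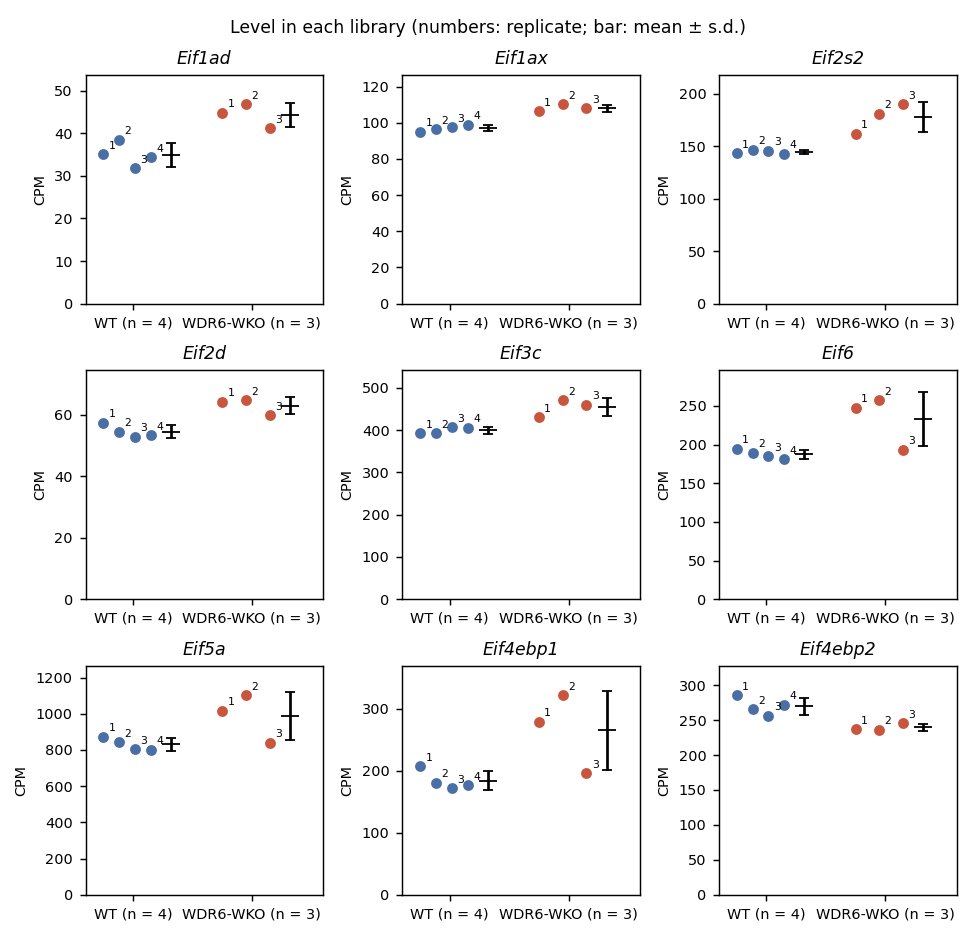
CPM (y axis, from 0) in each library of WT and WDR6-WKO hepatocytes (x axis) for the 7 factors that rose and the 2 4E-BP genes, with replicate numbers and mean ± s.d. as bars. WDR6-WKO replicate 3 lies inside the WT range for *Eif6*, *Eif5a* and *Eif4ebp1*, at 193.5, 841 and 196 CPM, and outside it for the other 6 genes.

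Of the 5 late factors 2 rose. *Eif6* (chr2:155819832-155826925, minus strand) encodes a protein that keeps the large subunit from joining the small one too early. It was at 195, 189.5, 185 and 181 CPM in WT replicates 1 to 4, and at 248, 258 and 193.5 CPM in WDR6-WKO replicates 1 to 3. WDR6-WKO replicates 1 and 2 were above all WT libraries and replicate 3 was among them, with a log2 fold change of 0.31 (SE 0.08, adjusted p = 0.0212).

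*Eif5a* (chr11:69916714-69921958, minus strand) encodes the protein that carries hypusine and is now known mostly for elongation and termination. It was at 874, 844, 804 and 800.5 CPM in WT replicates 1 to 4, and at 1017, 1101 and 841 CPM in WDR6-WKO replicates 1 to 3. Replicate 3 again was among the WT libraries, and the log2 fold change was 0.25 (SE 0.07, adjusted p = 0.0449). *Eif5*, which makes eIF2 hydrolyse GTP, was at 507 ± 8.50 CPM in WT and 550.4 ± 57.2 CPM in WDR6-WKO hepatocytes (adjusted p = 0.202). *Eif5b*, for the GTPase of subunit joining, was at 188 ± 3.67 and 177 ± 9.18 CPM (adjusted p = 0.266), and *Eif5a2* was low, at 3.80 ± 0.933 and 4.24 ± 1.13 CPM (adjusted p = 0.717).

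The number of factors that passed moved when single libraries were left out. Without WDR6-WKO replicate 3, 12 factors were called higher, the same 7 with *Eif1*, *Eif3g*, *Eif3h*, *Eif4e2* and *Eif4h*, and 6 lower (*Eif3e*, *Eif3j1*, *Eif3j2*, *Eif4a2*, *Eif4g2* and *Eif5b*), and 28.6% of all genes were called. Leaving out any of the other 6 libraries left 2 to 5 factors higher. *Eif3c* was lost without WT replicate 2 or WDR6-WKO replicate 2, with log2 fold changes of 0.18 and 0.16. *Eif6* and *Eif2d* were lost without WT replicate 2, 3 or 4 or WDR6-WKO replicate 1 or 2, where *Eif6* ran from 0.24 to 0.32 and *Eif2d* from 0.19 to 0.21. *Eif5a* and *Eif1ax* were lost without any 1 of the 6 libraries other than WDR6-WKO replicate 3, and *Eif5a* then ran from 0.16 (without WDR6-WKO replicate 2) to 0.27 and *Eif1ax* from 0.14 to 0.17. *Eif1ad* and *Eif2s2* were called in every fit that was run with an adjusted p. The distance of WDR6-WKO replicate 3 from the other WDR6-WKO libraries (the mean log2 level of replicates 1 and 2 minus that of replicate 3) went with the GC content of the transcript, with a Spearman correlation of 0.76 across the 47 factors and 0.51 across 14687 genes. It also went with the length of the transcript, with -0.48 and -0.24. These correlations describe values across genes that share the same libraries. The distance was 0.43 for *Eif3g* (55.8% GC), 0.39 for *Eif6* (57.9% GC) and 0.33 for *Eif5a* (55.0% GC), and -0.62 for *Eif5a2* (38.8% GC) and -0.25 for *Eif5* (41.7% GC). Genes with more GC stood lower in replicate 3 than in the others. With each library's trend with GC content taken out, 10 factors were called higher, the same 7 with *Eif1*, *Eif4e2* and *Eif5*, and 1 lower, *Eif3j2*, where 18.6% of all genes were called.

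**Figure D5:**
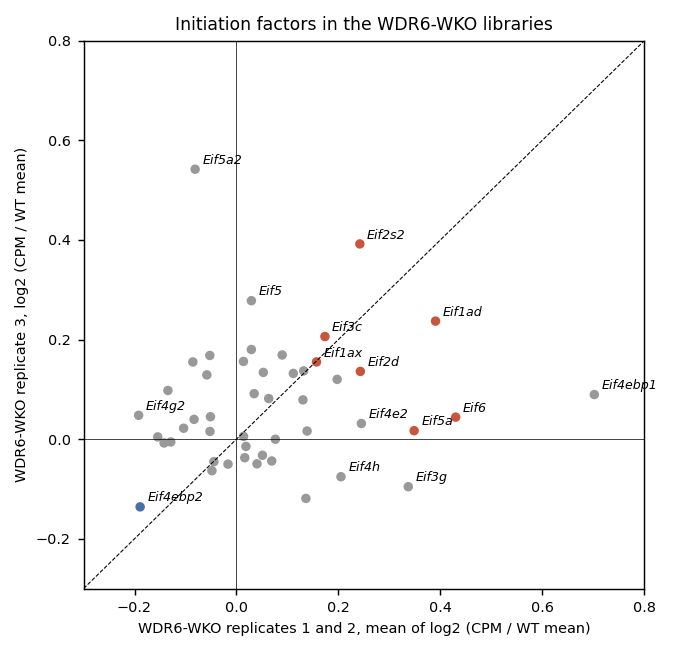
Log2 of CPM over the WT mean in WDR6-WKO replicate 3 (y axis) against the mean of the same in replicates 1 and 2 (x axis) for each gene but *Eif3j2*, which lies outside the axes, with genes that rose in red, *Eif4ebp2* in blue and the diagonal dashed. *Eif6*, *Eif5a*, *Eif3g* and *Eif4ebp1* lie to the right of the diagonal, and *Eif5* and *Eif5a2* above it.

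Beside these genes, 63 other genes of translation and its control were tested, with a median log2 fold change of 0.01. Of the 63 genes 7 rose (11.1%) and 3 fell (4.76%), against 6.65% and 6.18% of all genes. Of 18 elongation and termination factors, 1 rose (5.56%), *Eef1e1*, for a component of the tRNA synthetase complex, from 30.4 ± 0.890 to 36.5 ± 2.22 CPM (adjusted p = 0.0172, not passed without WT replicate 1 or 4 or WDR6-WKO replicate 2, at 0.0537 to 0.0901). *Eef1b2*, for an exchange factor of eEF1A, had a log2 fold change of 0.10 (adjusted p = 0.203) and *Gspt2*, for the termination factor eRF3b, of -0.28 (adjusted p = 0.210). Of 22 initiation genes outside the Eif symbols 2 rose (9.09%). *Dhps*, for the first enzyme of hypusine synthesis on eIF5A, went from 20.1 ± 0.654 to 24.4 ± 2.45 CPM (adjusted p = 0.0363). *Dohh*, for the second enzyme, was at 7.53 ± 1.24 and 11.9 ± 4.03 CPM and did not pass (adjusted p = 0.0719). It met the study's thresholds and passed with DESeq2 (adjusted p = 0.0107), the replicate block (0.0138), GC correction (0.0137) and without WDR6-WKO replicate 3, where its log2 fold change was 0.91 in place of 0.67. *Dph3*, known for the diphthamide modification of the elongation factor eEF2 rather than for initiation, went from 27.6 ± 1.80 to 33.2 ± 3.51 CPM (adjusted p = 0.0439). The calls of *Dhps* and *Dph3* were lost with the replicate block (adjusted p = 0.0665 and 0.0526) and without any 1 of the 6 libraries other than WDR6-WKO replicate 3, at 0.0635 to 0.189 for *Dhps* and 0.0648 to 0.223 for *Dph3*.

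Of 23 genes of mTOR and cap control, 4 rose and 3 fell, where 12.8% of all genes were called in either direction. *Sesn2*, for a leucine sensor that restrains mTORC1, rose from 51.9 ± 3.38 to 78.0 ± 6.96 CPM, and its log2 fold change was 0.59 (SE 0.07). *Rheb*, for the GTPase that activates mTORC1, rose from 86.0 ± 3.65 to 104 ± 2.83 CPM (adjusted p = 0.0026). *Ddit4*, for the mTORC1 inhibitor REDD1, rose from 19.8 ± 1.38 to 31.5 ± 7.31 CPM (adjusted p = 0.00347). Genes that activate and genes that restrain mTORC1 were thus both among those that rose. The other 4 were chosen after their values were seen, *Mknk1*, for a kinase of eIF4E, which rose with a log2 fold change of 0.29, and *Sesn3*, *Deptor* and *Castor1*, for restraints of mTORC1 or mTOR, which fell with log2 fold changes of -0.34, -0.25 and -0.29. *Castor1* did not pass with library sizes alone (adjusted p = 0.0669) or without WT replicate 1, 2 or 3 or WDR6-WKO replicate 1 or 2, *Deptor* with the replicate block (0.0696) or without WT replicate 3 or 4 or WDR6-WKO replicate 1 or 2, and *Mknk1* without WT replicate 3 (0.0546) or WDR6-WKO replicate 2 (0.0900).

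Promoter sequence from RefSeq (GRCm38.p6, 250 bases before to 50 after each start, 32851 windows) was matched by symbol for 37 of the 47 factors and for 6 of the 7 that rose, all but *Eif6*. The motif CCGGAAG, on either strand the core of the sites of ETS factors, was found in 14 of the 37 genes (37.8%), among them *Eif1ad*, *Eif1ax*, *Eif3c* and *Eif5a*, where 9.93% of all 27025 genes with a window held it. For every motif, the share of all genes is over these 27025 genes, expressed in hepatocytes or not, while the factors were all expressed. A share over expressed genes alone was not computed. The following stretches show a single site in each of these 4 genes and in *Eif4ebp2*, as 30 bases along the strand of the gene with the motif or its reverse complement in capitals. *Eif1ad* and *Eif3c* held a further site that is not shown.

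Eif1ad (chr19:5366645-5366674, plus strand): ctcgacttccgCTTCCGGgtcgttttatgc

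Eif1ax (chrX:159371955-159371984, plus strand): cctcccgccccCTTCCGGacgccggaggcc

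Eif3c (chr7:126566416-126566445, minus strand): attctttggtgCTTCCGGgaagtgacgccc

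Eif5a (chr11:69920667-69920696, minus strand): cagccgtagcaCCGGAAGtgttccccattg

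Eif4ebp2 (chr10:61452775-61452804, minus strand): gccttcgaccgCTTCCGGtagtcatcgttg

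The E-box CACGTG, the site of MYC and related factors and its own reverse complement, was found in 10 of the 37 genes (27.0%), against 8.09% of all genes. Of the factors that rose only *Eif5a* held it, while *Eif4e*, *Eif4g1* and *Eif4a1*, the 3 genes of eIF4F, all held it. A single site of each of these 3 genes is shown with the motif in capitals, and *Eif4e* and *Eif4g1* held a further site that is not shown.

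Eif4e (chr3:138527192-138527221, plus strand): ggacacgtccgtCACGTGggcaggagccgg

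Eif4g1 (chr16:20672661-20672690, plus strand): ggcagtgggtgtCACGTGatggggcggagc

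Eif4a1 (chr11:69672595-69672624, minus strand): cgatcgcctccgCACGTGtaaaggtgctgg

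Of 2 further motifs searched on both strands, TGATGNAA, the site of ATF4 with C/EBP factors, was found in 1 of the 37 genes, *Eif2s3x*, against 4.51% of all genes, and the interferon response element (GAAA, any 2 bases and GAAA) in 3, against 3.99%. Neither was found in a factor that rose. A C followed by at least 4 pyrimidines at the start itself, the mark of mRNAs with a 5′ terminal oligopyrimidine tract, was found in *Eif3f* and *Eif2s3x* (5.41% of the 37 genes), against 3.01% of all genes. Only the annotated start base was searched, so a tract that begins at another base was missed. Factors without a window, such as *Eif3e* and *Eif3h*, could not be searched. The motifs were chosen after expression values were seen, a match is not evidence of binding, and the shares were not tested.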

How the data were processed

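Hepatocyte RNA of 7 libraries was aligned to mm10 with Bowtie2 2.2.3, per the submitters' processing notes, and the authors deposited a table of raw, unnormalized read counts by symbol. The counting tool, annotation and strand setting are not given in the sources used here. The smallest row total is 50.

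The deposited counts were scaled to CPM by TMM and fitted with edgeR 4.0.16 under R 4.3.3 (filterByExpr, robust quasi-likelihood test, all 7 libraries, no covariates) with p-values adjusted by Benjamini-Hochberg over 14779 genes. The biological coefficient of variation was 7.40%. DESeq2 1.42.0, other scalings, filters, call rules, a replicate block, GC correction and left-out replicates were alternatives. Lengths and overlaps came from GRCm38 annotation.

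Members and lists were chosen with earlier results of these data known. Named were all factors with an adjusted p under 0.05, the subunits of eIF2 and eIF2B, *Eif4e*, *Eif4g1*, *Eif4a1*, the Eif4ebp genes, in other role groups the genes of smallest p and highest level, and the 3 smallest p-values in each further list. All other genes named were chosen after their values were seen. Lymphocyte markers were not analysed here. Of the other cell type markers, 35 were tested, 7 higher and 2 lower (20.0% and 5.71%, against 6.65% and 6.18% of all genes). Promoters were searched by exact letters.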

Additional observations from a re-analysis of the deposited data

Results flagged for a closer look

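*Eif2b5* in WT replicate 4 was at 90.82 CPM, while the other WT libraries lay between 97.7 and 98.8 CPM. Its gap to the nearest of them was 0.865 of the whole WT range, above the critical value of Dixon's test for 4 samples. Chance alone gives such a flag in about 1 of 20 groups, and this was 1 of 49 genes tested in the WT group.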

How the results depend on the processing

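Factors called higher numbered 7 in the reported fit and 6 to 10 with another tool, scaling, filter, replicate block or GC correction, and factors called lower numbered 0, or 1 with DESeq2 and 1 with GC correction. The study's thresholds gave 0 higher and 1 lower, and 3 genes of the pathway list in place of 10. With 1 replicate left out, 2 to 12 factors were higher, 0 to 6 were lower, and 1032 to 4233 of all genes, 4 to 24 pathway genes and 5 to 15 markers of other cell types were called, with the upper ends without WDR6-WKO replicate 3 and the lower ends of the factors called higher without WT replicate 2 or WDR6-WKO replicate 2. GC correction, chosen after seeing the data, called 14 of these markers in place of 9. The cause of these differences was not tested. The spread of eIF3 levels per length was 9.10 times by the longest coding transcript in place of 7.86.

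Same-numbered libraries of the genotypes correlated at 0.04, 0.02 and 0.038 in their deviations, where differently numbered libraries ran from -0.131 to 0.123. These values showed no pairing by number. They cannot settle whether samples were paired, since that is not given in the sources used here. With the replicate block 6 factors were called higher, without *Eif1ax*, 0 lower, and 1762 genes in all, and *Eif4ebp2* had an adjusted p of 0.0624. For 52 of the genes named in the text, 728 log2 fold changes were computed under the alternatives: 617 kept their direction and their side of the threshold, 67 no longer passed, 28 newly passed and 16 changed sign, none of which passed in either fit. *Eif2s3x* turned from -0.0019 to 0.0242 with library sizes alone, 0.0139 with the replicate block and 0.0235 with GC correction, *Eif3a* from -0.018 to 0.00801 with library sizes alone and 0.00767 with GC correction, and *Eif4g1* from 0.011 to -0.0136 with GC correction. With 1 replicate left out, *Eif2s3x* ran from -0.0875 to 0.0433, *Eif3a* from -0.0531 to 0.00983, *Eif4g1* from -0.00827 to 0.038, *Eif4e* from -0.0544 to 0.0754, *Eif2b4* from -0.0178 to 0.137 and *Eif5a2* from -0.084 to 0.281. Without *Eif4a-ps4* 7 factors were higher, and without factors that share over 10% of the 50-base sequences of their longest coding transcript 5 of 31 were. Of the factors called higher this left out *Eif1ad* (15.1% shared) and *Eif2s2* (27.8%), those called in every fit with an adjusted p. The other 5 each lost their call when some single library was left out. At this depth low genes such as *Eif3j2* and *Eif5a2* carry wide errors.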
